A study of Mus musculus with 24 samples.

Results

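The voltage-gated and related ion channels measured here were 101 genes of 12393, taken by symbol: the potassium channel genes (Kcn followed by a letter), the sodium channel genes (Scn followed by a number and a or b), the calcium channel genes of the Cacna, Cacnb and Cacng series, and the Clcn chloride channel genes. RNA of whole sciatic nerve, freed of its perineurial sheath and snap-frozen, was hybridised to 24 Affymetrix arrays. WT mice, Chop null mice, S63del mice and S63del/Chop null mice were sampled at postnatal day 5 (P5), P28 and 4 months, with 2 arrays in each of the 12 groups, labelled as biological replicates. S63del mice are a model of Charcot-Marie-Tooth 1B neuropathy and carry a mutant form of myelin protein zero, the main structural protein of peripheral myelin. Chop null mice lack Ddit3, which encodes the stress transcription factor CHOP, and S63del/Chop null mice combine both changes. The labels used here do not give the strain, the sex or whether nerves of several mice were pooled.

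Values are log2 expression, and 1 probe set stood for each gene, its brightest on average (37 of the 101 genes had several). The array medians lay between 6.84 and 7.03. With 2 arrays a group, precision is limited by their number. Ddit3, the deleted gene, read 6.60 to 7.37 on the 12 arrays of the genotypes without it and 7.61 to 9.59 on the 12 others. The Chop null P28 replicate 2 array stood apart, with a root mean square distance of 0.558 from the median array of its age, against 0.179 to 0.334 on the 23 others. Most channel genes were dim: 81 of 101 (80.2%) had a mean under 6.63, the 40th percentile of all genes, which took in all 23 calcium channel genes, 16 of 20 voltage-gated potassium channel genes and 7 of 9 sodium channel genes. The 20 brighter ones were Scn3b and Scn7a among sodium channels, Kcna1, Kcna2, Kcnh2 and Kcnh3 among voltage-gated potassium channels, Kcnj8 and Kcnj10, Kcnk1, Kcnk2 and Kcnk5, the calcium-activated Kcnn4, the auxiliary subunits Kcnab1, Kcne4 and Kcnmb4, and Clcn2, Clcn3, Clcn4, Clcn5 and Clcn7. In whole nerve, fewer cells of a type and less RNA per cell cannot be told apart.

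Voltage-gated channels open when the membrane depolarises. In myelinated axons sodium channels cluster at the nodes of Ranvier, where they carry the upstroke of the action potential, and Kv1 potassium channels lie beside the node under the myelin. Glial cells carry inward rectifier and leak potassium channels that set their resting potential and take up potassium released by axons, and most Clcn proteins work as chloride transporters of endosomes and lysosomes. The cell bodies of the axons lie outside the nerve, so RNA of the nerve comes mostly from Schwann cells, connective tissue, vessels and immune cells.

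Promoters were available for 82 of the 101 genes from RefSeq on GRCm38.p6, and those of 3 genes that carry the genotype results are printed from 250 bases before the start site to 30 after it, so that a reader can see what the sequence around their start sites holds. Capitals mark the SOX motif ACAAAG on either strand, the core of the sites of SOX factors, of which SOX10 is the master factor of Schwann cells. The Kcnk1 promoter lies on chromosome 8 at chr8:125994852-125995131 (plus strand), that of Kcnmb4 at chr10:116473494-116473773 (minus strand), and that of Kcnj10 at chr1:172340960-172341239 (plus strand).
Kcnk1: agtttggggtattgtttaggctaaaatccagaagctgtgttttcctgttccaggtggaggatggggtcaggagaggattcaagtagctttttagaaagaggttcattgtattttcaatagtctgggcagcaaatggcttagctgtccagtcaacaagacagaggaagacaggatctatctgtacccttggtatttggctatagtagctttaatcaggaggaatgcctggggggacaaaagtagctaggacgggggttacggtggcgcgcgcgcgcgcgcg
Kcnmb4: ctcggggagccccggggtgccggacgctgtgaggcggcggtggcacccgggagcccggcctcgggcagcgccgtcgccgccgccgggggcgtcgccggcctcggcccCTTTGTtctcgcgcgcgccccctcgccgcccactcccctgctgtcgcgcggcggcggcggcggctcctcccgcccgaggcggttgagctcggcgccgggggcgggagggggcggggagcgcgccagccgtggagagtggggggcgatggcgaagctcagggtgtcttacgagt
Kcnj10: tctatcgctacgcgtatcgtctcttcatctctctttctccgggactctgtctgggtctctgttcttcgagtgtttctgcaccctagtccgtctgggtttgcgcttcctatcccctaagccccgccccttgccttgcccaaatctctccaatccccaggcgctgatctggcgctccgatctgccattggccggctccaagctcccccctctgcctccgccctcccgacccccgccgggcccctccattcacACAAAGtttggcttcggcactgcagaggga
The SOX motif stood once in Kcnj10, starting at the start site, once on the reverse strand upstream of the start in Kcnmb4, and not in Kcnk1. It stood in 18.7% of all 32851 promoters of the table and in 22 of 114 promoters of channel genes (19.3%), counted over the table's full windows of 250 bases before to 50 after the start. The ATF4 and CHOP motif TGATGNAA (3.97% of all promoters), the AP-1 motif TGANTCA (7.81%), the cAMP response element TGACGTCA (1.79%), the sterol response element TCACNCCAC (1.24%) and the EGR motif GCGTGGGCG (0.612%) were searched on both strands and had no match in the windows of Kcnk1, Kcnmb4, Kcnj10 or Kcnh2. A match is only a description of these letters.

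Few channel genes differed between S63del and WT nerves at P5. Scn3b, the beta3 auxiliary subunit that modulates sodium channel gating, and Kcnk1, the tandem-pore leak channel TWIK-1, differed by -1.66 ± 0.20 and -1.56 ± 0.15 (log2 difference ± SE, 2 arrays against 2) and thus fell 3.17-fold and 2.94-fold. Kcnmb4, the beta4 subunit of the large-conductance calcium-activated potassium channel, fell by 0.54 ± 0.11, and Kcnh2, the ERG1 channel of delayed repolarisation, rose by 0.61 ± 0.15. These were 4 of 101 channel genes past an adjusted p of 0.05 in limma, 1 higher and 3 lower, where 2.4% of all genes passed (1.15% higher and 1.26% lower). The median of the 101 was -0.06 and that of all genes -0.02.

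For Scn3b at P5 the arrays read 9.27 and 9.31 (WT), 9.19 and 9.21 (Chop null), 7.68 and 7.57 (S63del), and 7.65 and 7.73 (S63del/Chop null). At P28 they read 9.24 and 9.25, 9.41 and 9.18, 8.25 and 8.39, and 8.22 and 8.27 in the same order. At both ages all 4 arrays with the mutation lay below all 4 without it. At 4 months the 4 overlapped with the other 4, although S63del stayed below WT, with 8.33 and 8.04, 7.54 and 7.99, 7.51 and 7.45, and 8.33 and 7.50. The limma adjusted p for S63del against WT was 7.48e-05 at P5 and 0.0135 at P28, where the fall was 0.92 ± 0.20. A second, dimmer Scn3b probe set gave -1.65 at P5 and -0.89 at P28. At 4 months S63del against WT was -0.70 ± 0.20 with an adjusted p = 0.589 in limma. The P28 call was lost without WT replicate 1 (adjusted p = 0.106), S63del replicate 1 (0.132) or S63del replicate 2 (0.0549), and in the fit of P28 arrays alone (0.0562).

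Kcnk1 showed its difference at P5 and at neither later age. Its P5 values were 10.81 and 10.79 (WT), 10.63 and 10.68 (Chop null), 9.34 and 9.16 (S63del), and 9.42 and 9.35 (S63del/Chop null). At P28 they were 10.42 and 10.46, 10.64 and 10.13, 10.64 and 10.60, and 10.53 and 10.30. The 4 arrays with the mutation now overlapped with the 4 without it, and S63del lay slightly above WT. The P5 fall had an adjusted p = 7.77e-06 in limma, and the P28 difference was 0.18 ± 0.15 (adjusted p = 0.504). The change of the S63del effect from P5 to P28 was itself tested, at 1.74 ± 0.21 with an adjusted p = 0.000356 in limma. Kcnk1 was the 1 channel gene to pass in that comparison, where 0.476% of all genes did. At 4 months the arrays read 10.50 to 10.87 in WT and Chop null and 10.56 to 10.79 in both S63del genotypes, and a second Kcnk1 probe set gave -1.50 at P5 and 0.02 at P28.

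Kcnmb4 and Kcnh2 differed less but without overlap. Kcnmb4 at P5 read 9.33 and 9.29 (WT), 9.20 and 9.30 (Chop null), 8.75 and 8.78 (S63del), and 8.86 and 8.81 (S63del/Chop null), and at P28 9.04 and 9.002, 9.02 and 9.08, 8.63 and 8.39, and 8.66 and 8.68. The mutant arrays lay below the others at both ages and overlapped with them at 4 months, when S63del against WT was -0.13 ± 0.11 (limma, adjusted p = 1). The adjusted p of S63del against WT was 0.0119 at P5 and 0.0164 at P28 (limma, -0.51 ± 0.11), and the P28 call was lost without WT replicate 1 (0.125) or S63del replicate 2 (0.138) and in the fit of P28 arrays alone (0.292). Kcnh2 at P5 read 7.49 and 7.46, 7.50 and 7.31, 8.10 and 8.08, and 8.11 and 8.005, and at P28 7.30 and 7.22, 7.24 and 7.11, 7.79 and 7.74, and 7.70 and 7.83. Here the mutant arrays lay above the others. The adjusted p was 0.0424 at P5 and 0.0655 at P28 in limma (0.51 ± 0.15), and at P5 it was 0.0554 after a further quantile normalization of the arrays. Both Kcnmb4 and Kcnh2 lost their P5 call in S63del against WT whichever of the 4 arrays was dropped, with an adjusted p of up to 0.122 for Kcnmb4 and 0.259 for Kcnh2.

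**Figure D1:**
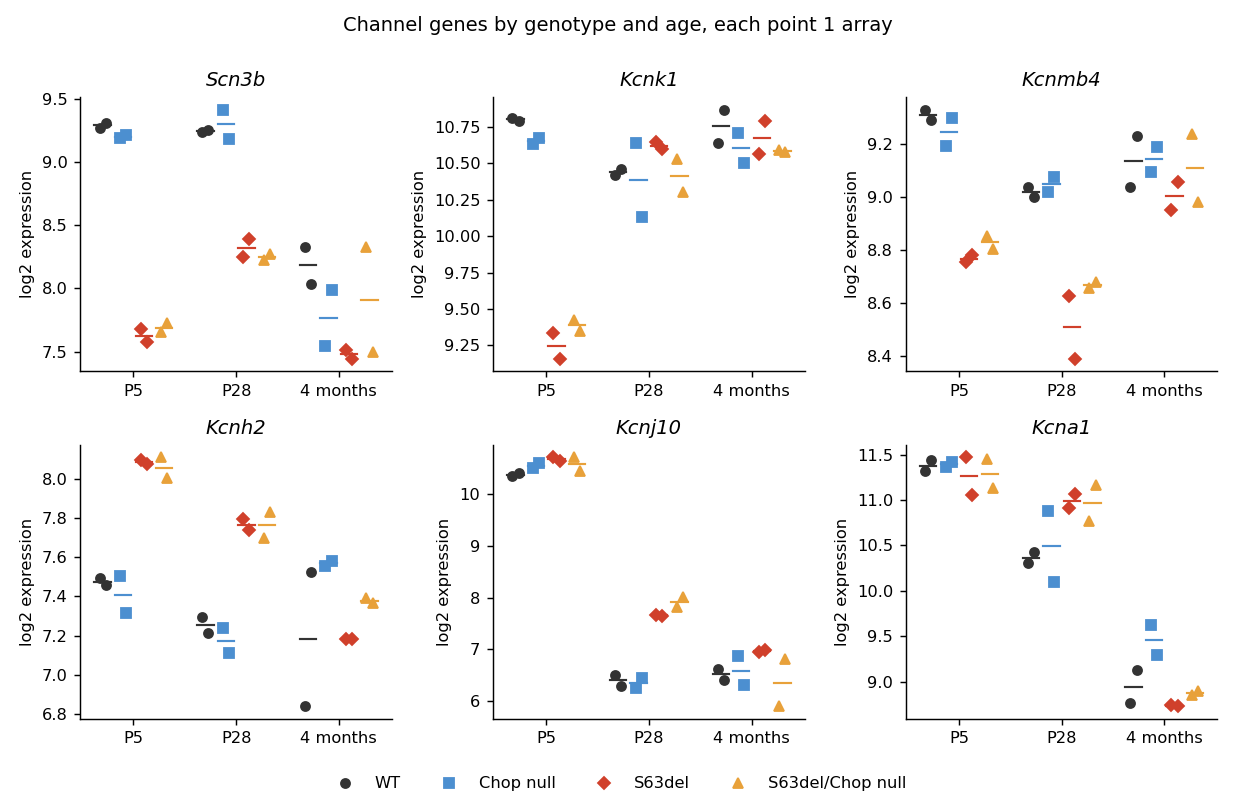
Log2 expression of 6 channel genes by age (x axis) and genotype (colour and marker), each point 1 array and each bar the mean of 2. Scn3b, Kcnk1 and Kcnmb4 are lower and Kcnh2 higher on the S63del arrays at P5, Kcnj10 is higher on them at P28, and Kcna1 declines with age.

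At P28 the same comparison called Scn3b and Kcnmb4 again, as above, and added Kcnj10 and a muscle channel. Kcnj10 encodes Kir4.1, the inward rectifier by which glia take up potassium. Its arrays read 6.50 and 6.30 (WT), 6.26 and 6.44 (Chop null), 7.66 and 7.65 (S63del), and 7.82 and 8.02 (S63del/Chop null), so that the mutant arrays lay above the others without overlap. It rose by 1.26 ± 0.22 in S63del against WT (2.40-fold, adjusted p = 0.00369 in limma). With Cacna1s, described with the muscle channels, 4 of 101 channel genes passed, 1 higher and 3 lower, where 4.62% of all genes did (3.01% higher and 1.61% lower). The medians were -0.15 for the channel genes and 0.01 for all genes.

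The rise of Kcnj10 at P28 was set on a steep decline of the gene. At P5 it read 10.34 and 10.42 (WT), 10.51 and 10.60 (Chop null), 10.71 and 10.63 (S63del), and 10.72 and 10.44 (S63del/Chop null), and at 4 months 6.62 and 6.42, 6.87 and 6.31, 6.96 and 6.99, and 5.90 and 6.81. In WT it fell by 3.98 ± 0.22 from P5 to P28 (15.8-fold, adjusted p = 7.86e-10 in limma). S63del nerves at P28 thus stood between the WT level of P28 and that of P5, far nearer to the former. The change of the S63del effect from P5 to P28 was 0.97 ± 0.31 for Kcnj10, with an adjusted p = 0.291 in limma, so that the effect was not shown to differ between these ages.

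Since both genotypes with the mutation carried these differences, they were also compared together, 4 arrays against the 4 of WT and Chop null at the same age. This comparison shares its arrays with the one before and is not independent of it. At P5 it called the same 4 genes of 101, where 5.97% of all genes passed (2.87% higher and 3.1% lower): Scn3b at -1.59 ± 0.14, Kcnk1 at -1.41 ± 0.10, Kcnmb4 at -0.48 ± 0.08 and Kcnh2 at 0.63 ± 0.11, with adjusted p in limma of 1.08e-06, 1.38e-07, 0.000914 and 0.00123. At P28 Kcnj10 was 1.41 ± 0.16 higher (adjusted p = 1.73e-05), Kcnh2 0.55 ± 0.11 higher (0.00225), Scn3b 0.98 ± 0.14 lower on the log2 scale (0.000164) and Kcnmb4 0.44 ± 0.08 lower (0.00114), all in limma. In the 15 alternatives tried, the calls of Scn3b and Kcnh2 at both ages, of Kcnk1 at P5 and of Kcnj10 at P28 were kept, and Kcnmb4 lost its P28 call in the fit of the 8 arrays of that age alone (adjusted p = 0.0684).

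**Figure D2:**
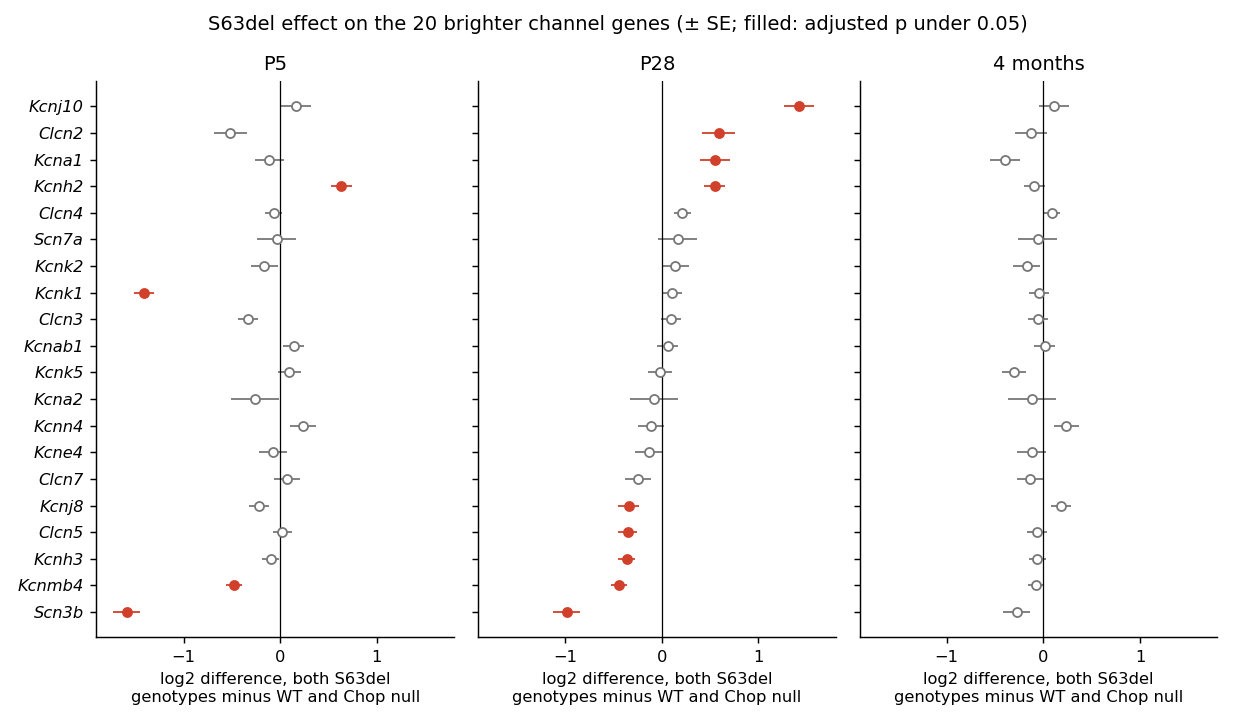
Log2 difference between both S63del genotypes and the WT and Chop null arrays of the same age, 4 arrays against 4, for the 20 brighter channel genes (y axis) at P5, P28 and 4 months. Bars are SE and filled points have an adjusted p under 0.05. Of these genes 4 are called at P5, 9 at P28 and 0 at 4 months.

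Among the brighter genes 5 more passed at P28 in this comparison, by smaller margins. Kcna1, the axonal Kv1.1 channel, was 0.55 ± 0.15 higher (adjusted p = 0.0162 in limma) with overlapping arrays, 10.31 and 10.42 in WT and 10.88 and 10.10 in Chop null against 10.91, 11.07, 10.77 and 11.17. Without the Chop null replicate 2 array, which read 10.10, the difference was 0.35. The call was lost there and without WT replicate 1 or S63del/Chop null replicate 2. It was also lost in the limma fit of P28 arrays alone (adjusted p = 0.136). Clcn2, a chloride channel of the plasma membrane that responds to cell volume, read 7.55, 7.75, 7.80 and 7.02 against 8.18, 7.85, 8.09 and 8.34, with no overlap. It was 0.59 ± 0.17 higher (adjusted p = 0.0181 in limma), and 0.39 higher without Chop null replicate 2. The call was lost there and without WT replicate 1, S63del replicate 1 or S63del/Chop null replicate 2. It was also lost in the limma fit of P28 arrays alone (adjusted p = 0.123). At P5 Clcn2 had been lower in both S63del genotypes, 6.60 to 6.96 against 7.23 to 7.44 (-0.52 ± 0.17, adjusted p = 0.0904 in limma). The change of the S63del effect on Clcn2 from P5 to P28, in S63del against WT, was 0.92 ± 0.34 with an adjusted p = 0.401 in limma.

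The other 3 were lower: Kcnh3, an ether-a-go-go-like potassium channel, by -0.36 ± 0.09, Clcn5, an endosomal chloride exchanger, by -0.35 ± 0.10, and Kcnj8, the Kir6.1 pore of the ATP-sensitive potassium channel of pericytes and smooth muscle, by -0.34 ± 0.10. Kcnh3 and Clcn5 did not overlap between the groups, and Kcnj8 did. Clcn5 lost its call in 5 of 15 alternatives (adjusted p up to 0.141), namely the fit of P28 arrays alone and without WT replicate 1, Chop null replicate 2, S63del replicate 1 or S63del/Chop null replicate 2. Kcnj8 lost it in 4 (up to 0.177), namely that fit and without WT replicate 2, S63del replicate 1 or S63del/Chop null replicate 1, and Kcnh3 lost it in that fit (0.144). Abcc9, the SUR2 partner of Kir6.1, was lower as well (-0.52 ± 0.18, adjusted p = 0.0429 in limma), and was chosen for mention after its values were seen. In all, 9 of the 20 brighter genes passed, 4 higher and 5 lower. With dim genes left out of the fit the same counts were found, and 35.5% of the 7436 brighter genes passed (27.6% higher and 7.92% lower).

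The counts over all 101 genes at P28 need the behaviour of dim probe sets beside them. In both S63del genotypes 33 channel genes passed, 4 higher and 29 lower, where 28% of all genes passed (16.1% higher and 11.9% lower). Of the 29 lower, 24 were dim. The median of the 81 dim channel genes was -0.26, with 72 below 0, and the median of all 4957 dim genes was -0.19, with 18.1% above 0, while that of the 7436 other genes was 0.11. After a further quantile normalization these medians were -0.11, -0.06 and 0.04, and 20 channel genes passed, 5 higher and 15 lower. The share of all genes called after it is not given here. Called under both scalings were 19 genes, among them 10 dim ones that were lower, such as Kcnj9, the Kir3.3 subunit of G protein-gated channels (-0.53 ± 0.13), Cacng4, a calcium channel gamma family member (-0.42 ± 0.10), and Kcna7, Kv1.7 (-0.39 ± 0.11), whose arrays did not overlap. Kcnj9, Cacng4 and Kcna7 lost the call in the limma fit of P28 arrays alone (adjusted p = 0.123, 0.135 and 0.115). Kcna7 also lost it without WT replicate 1, S63del replicate 1 or S63del/Chop null replicate 1. By family the 33 were 7 lower of 23 calcium channel genes, 5 lower of 9 sodium channel genes, 6 lower of 15 auxiliary potassium channel genes, 2 higher and 4 lower of 20 voltage-gated, 1 higher and 4 lower of 13 inward rectifier, 1 lower of 6 calcium-activated and 0 of 8 tandem-pore potassium channel genes, and 1 higher and 2 lower of 7 chloride channel genes. The count of 33 moved with single arrays. It was higher without Chop null replicate 1. It was lower without Chop null replicate 2, S63del replicate 1, S63del/Chop null replicate 2 or WT replicate 1. Each such fit leaves 1 array in a group. The share of all genes called in it is not given here, so these moves are not a result about channel genes.

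With and without Chop, S63del nerves did not differ past the threshold in any channel gene. Between S63del/Chop null and S63del 0 of 101 passed at P5, P28 and 4 months in limma, with 1, 1 and 4 at an unadjusted p under 0.05, where 0.0161%, 0.00807% and 0.00807% of all genes passed. For the genes above the difference at P5 was 0.06 for Scn3b (95% interval -0.35 to 0.48), 0.14 for Kcnk1 (-0.17 to 0.45), 0.06 for Kcnmb4 (-0.18 to 0.30) and -0.03 for Kcnh2 (-0.35 to 0.29). For Kcnj10 at P28 it was 0.26 (-0.20 to 0.72). The intervals for Scn3b and Kcnk1 at P5 leave out a return to the WT level, which would need a difference of the size of the falls given above. The mutation's effect with and without Chop differed for 0 of 101 genes at each age (limma, 0, 8 and 4 at an unadjusted p under 0.05; 0% of all genes passed).

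Between Chop null and WT 0 channel genes passed at each age, with 1, 11 and 11 at an unadjusted p under 0.05 and 0%, 0% and 0.00807% of all genes past the threshold in limma. These counts moved with single arrays: channel genes passed at P28 without Chop null replicate 1 and at 4 months without WT replicate 2. Either fit leaves 1 array in a group, at P28 the Chop null replicate 2 that stood apart. The share of all genes called in these fits is not given here. At 4 months 0 channel genes passed between S63del and WT (4 at an unadjusted p under 0.05) and 0 in both S63del genotypes (5), where 0% of all genes passed in either comparison.

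Markers of cell types were read beside these results. At P5 the mean of 8 myelinating Schwann cell genes lay at 11.90 to 11.94 in WT and Chop null and at 11.40 to 11.58 in both S63del genotypes, and overlapped at P28. The mean of 12 immature and repair Schwann cell genes lay at 7.56 to 7.60 against 7.85 to 8.05 at P5 and at 6.51 to 6.69 against 7.40 to 7.64 at P28, and overlapped at 4 months. The mean of 12 axonal and neuronal genes lay at 5.27 to 5.50 against 5.11 to 5.17 at P28. That mean lay under 6.63, the cut for dim genes. All 4957 dim genes had a median of -0.19 in the same comparison, so this shift cannot be told apart from theirs. Other lists separated as well. At P5 the mean of 12 endothelial and pericyte genes lay at 8.14 to 8.37 against 7.89 to 8.04, that of 11 fibroblast and perineurial genes at 11.25 to 11.35 against 11.03 to 11.16, and that of 6 erythroid genes at 6.45 to 7.14 against 6.08 to 6.26. At P28 the mean of 8 mast cell genes lay at 6.86 to 7.37 against 7.80 to 7.94, with 5 of 8 called higher, and the erythroid one at 6.47 to 6.84 against 5.62 to 6.43. These lists move with the groups at the same ages as Scn3b, Kcnk1, Kcnmb4, Kcnh2 and Kcnj10, and their part in those results was not tested. Of the lists, the myelinating one had 5 of 8 genes lower at P5 in both S63del genotypes, and the immature one 7 of 12 higher and 2 lower at P28. In both S63del genotypes 2.87% of all genes were called higher and 3.1% lower at P5, and 16.1% and 11.9% at P28.

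Genes that work beside the channels were read from fixed lists. Of 31 measured partners of the node, paranode and juxtaparanode, Nrcam, a cell adhesion molecule that gathers sodium channels at nodes, rose in S63del against WT by 0.71 ± 0.17 at P5 (adjusted p = 0.0332) and by 1.10 ± 0.17 at P28 (adjusted p = 0.00153, limma). Cntn1, the paranodal contactin, fell by 1.23 ± 0.20 at P28 (adjusted p = 0.00214), and Cadm3, an axonal adhesion molecule, fell by 0.87 ± 0.13 at P5 (adjusted p = 0.000853). The list had 1 gene higher and 1 lower at P5 and 4 higher and 1 lower at P28, with medians of -0.04 and -0.02. Of all genes 1.15% were higher and 1.26% lower at P5, and 3.01% and 1.61% at P28. Cntnap1, the Caspr of the paranode, was -0.21 ± 0.13 at P28 (adjusted p = 0.377).

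Of 42 other ion channel genes 1 passed at P5, Panx1, a large-pore channel that releases ATP (0.83 ± 0.20, adjusted p = 0.0332), and 2 at P28, both of the tweety family, membrane proteins described as anion channels. Ttyh1 rose by 0.74 ± 0.20 (adjusted p = 0.045) and Ttyh2 fell by 1.17 ± 0.17 (adjusted p = 0.000865, limma). In S63del against WT 2.4% of all genes passed at P5 and 4.62% at P28, so the counts of these other channels stood near that share. Of 25 pumps and carriers 0 rose and 2 fell at each of these ages, where 1.26% and 1.61% of all genes fell. Fxyd6, a modulator of the sodium pump, fell by 0.83 ± 0.17 at P5 (adjusted p = 0.0087), and Slc9a3r1, a scaffold of sodium-hydrogen exchangers, fell by 0.54 ± 0.11 at P5 (adjusted p = 0.0126) and by 0.60 ± 0.11 at P28 (adjusted p = 0.00679).

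The course with age was read in WT and, with more precision, as the mean of the 4 genotypes. In WT, 55 of 101 channel genes passed between P5 and P28, 46 higher and 9 lower (59.5% of all genes passed), and 60 between P28 and 4 months, 11 higher and 49 lower (57% of all genes). Over the 4 genotypes these counts were 72 higher and 13 lower (81.6% of all genes passed), then 17 higher and 74 lower (78.2%). The shares of channel genes called, 54.5%, 59.4%, 84.2% and 90.1%, stood beside 59.5%, 57%, 81.6% and 78.2% of all genes. Medians of dim channel genes over the 4 genotypes were 0.45 from P5 to P28 and -0.53 from P28 to 4 months, against 0.38 and -0.35 for all dim genes, and -0.17 and 0.25 for the brighter genes. The 20 brighter channel genes had medians of 0.04 and 0.07.

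After a further quantile normalization the dim channel genes had medians of 0.16 and -0.24 and all dim genes 0.08 and -0.08. The 20 brighter channel genes had 0.17 and -0.14, and all brighter genes -0.05 and 0.05. The 20 were near an even split, with 12 above and 8 below 0, then 8 above and 12 below. The counts became 47 higher and 19 lower, then 15 higher and 54 lower. The share of all genes called after this normalization is not given here, so these counts are not a result about channel genes. Age and any step of array processing that differed between the ages cannot be told apart in these files. The genes named below were called under both scalings unless a sentence says otherwise.

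**Figure D3:**
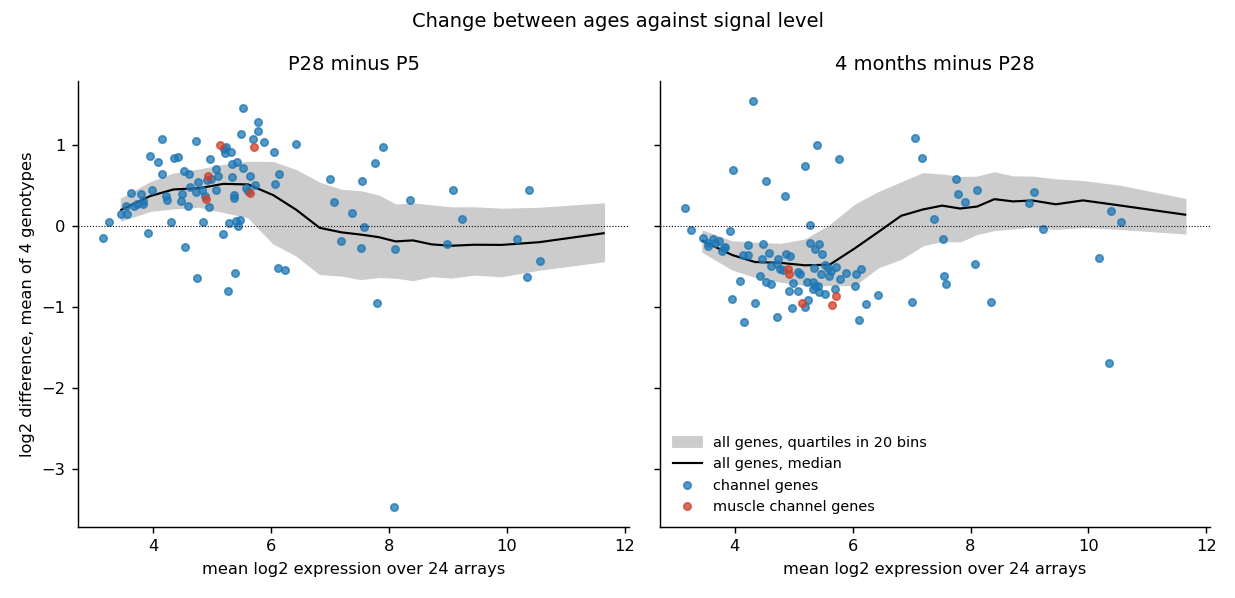
Log2 difference between ages, mean of 4 genotypes (y axis), against the mean log2 level over 24 arrays (x axis), for each of the 101 channel genes, with muscle channels in red. The line is the median of all genes at that level and the grey band spans their quartiles, so that the rise of dim genes at P28 and its return at 4 months can be read beside the channel genes. Kcnj10 at -3.47 (left) and Kcna1 at -1.70 (right) lie far outside the band.

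Among potassium channels, Kcnj10, Kcna1 and Kcna6 fell from P5 to P28. Kcnj10 fell by 3.47 ± 0.11 from P5 to P28 over the 4 genotypes (adjusted p = 5.58e-14 in limma), and all 8 arrays of P28 lay below all 8 of P5. From P28 to 4 months the mean over genotypes was -0.47 ± 0.11, but WT alone was 0.12 ± 0.22 (adjusted p = 0.659), and the mean takes in the raised P28 arrays of both S63del genotypes. Kcna1 ranged from 11.05 to 11.47 at P5 (median 11.39), from 10.10 to 11.17 at P28 (10.82) and from 8.73 to 9.63 at 4 months (8.88), so that every 4-month array lay below every earlier one. It differed by -0.63 ± 0.11 and then by -1.70 ± 0.11, both falls (adjusted p = 9.51e-10 for the latter in limma). In WT alone they were -1.01 ± 0.22 and -1.42 ± 0.22.

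Kcna2, which pairs with Kcna1 in the axonal channel, read -0.01 ± 0.17 in the earlier interval and fell by 0.71 ± 0.17 in the later one (adjusted p = 0.00135), from a range of 7.24 to 8.22 at P28 to 5.94 to 7.75 at 4 months, which overlap. In WT alone the later value was -1.31. Kcna6, the Kv1.6 subunit and a dim gene, differed by -0.52 ± 0.16 and -1.16 ± 0.16, with -0.62 in WT alone for the former (adjusted p = 0.1). In contrast Kcnab1, the beta1 subunit that binds Kv1 channels from inside the cell, rose by 1.08 ± 0.08 from P28 to 4 months (adjusted p = 2.69e-09 in limma), from 6.50 to 6.96 to a range of 7.51 to 8.21, with no overlap. Its second probe set gave 1.04. Cntn2, which holds Kv1 channels at the juxtaparanode, rose by 0.49 ± 0.08 and then fell by 0.45 ± 0.08, and Cntnap2, its partner, read 0.21 ± 0.12 (adjusted p = 0.121) and then fell by 0.28 ± 0.12 (adjusted p = 0.0438).

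Other potassium channels kept different courses. Kcnj8 fell by 0.95 ± 0.07 at P28, with no overlap, and rose by 0.40 ± 0.07 at 4 months (0.16 in WT alone, adjusted p = 0.352), and Abcc9 moved by -1.48 ± 0.13 and 1.39 ± 0.13. The mean of 12 endothelial and pericyte markers lay at 7.89 to 8.37 at P5, 8.03 to 8.47 at P28 and 8.68 to 8.99 at 4 months, and its part in the course of Kcnj8 was not tested. Kcne4, an auxiliary subunit that damps Kv channels, rose by 0.97 ± 0.10 at P28, from 6.90 to 7.44 to a range of 7.84 to 8.57. Its further rise of 0.30 ± 0.10 was 0.04 after the further quantile normalization and 0.60 in WT alone. Kcnk5, the acid-sensitive leak channel TASK-2, rose by 0.84 ± 0.09 between P28 and 4 months, but its dimmer second probe set gave -0.31.

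Kcnn2, the small-conductance SK2 channel, rose by 1.46 ± 0.08 at P28 from a dim 4.50 to 5.04 to a range of 5.85 to 6.65, and fell by 0.48 ± 0.08 afterwards. Kcnk13, the halothane-inhibited leak channel THIK-1, rose by 1.18 ± 0.07 and fell by 0.65 ± 0.07. Kcna5, Kv1.5, fell by 0.58 ± 0.13 and rose by 1.00 ± 0.13. Kcnk1 over the 4 genotypes rose by 0.44 ± 0.07 from P5 to P28, yet in WT alone it was -0.36 ± 0.15 (adjusted p = 0.0425); the mean takes in the low P5 arrays of both S63del genotypes. The WT value was -0.18 after the further quantile normalization (adjusted p = 0.26).

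Of 9 sodium channel genes, 7 of them dim, 8 rose and 0 fell to P28, where 46.2% of all genes rose and 35.4% fell, and 3 rose and 6 fell to 4 months, where 39.8% rose and 38.4% fell. After the further quantile normalization these counts were 5 and 1, then 2 and 2, without a matching share of all genes. Scn9a turned from a rise to -0.0815 in the first interval under that normalization. Scn8a, the Nav1.6 channel of mature nodes, ranged from 4.33 to 5.09 at P5, 5.47 to 6.24 at P28 and 6.33 to 7.67 at 4 months, with no overlap between ages. It rose by 1.29 ± 0.12 and then by 0.83 ± 0.12 (adjusted p = 3.27e-08 and 8.31e-06 in limma), and a dimmer second probe set gave 0.78 and then -0.24. The later rise was 1.35 in WT alone. Scn2a, the Nav1.2 channel of immature nodes, read -0.10 ± 0.08 in the first interval (-0.49 and called after the further quantile normalization) and rose by 0.74 ± 0.08 in the second. Scn7a, the sodium-sensing channel Nax, rose by 0.44 ± 0.14 and 0.42 ± 0.14, of which the latter was 0.19 and not called after the further quantile normalization. Scn3b read -0.05 ± 0.20 in WT from P5 to P28 (adjusted p = 0.848); its mean over genotypes was 0.33 ± 0.10, which takes in the low P5 arrays of both S63del genotypes, and -0.11 on its second probe set. To 4 months it fell by 0.94 ± 0.10 over the genotypes, with -1.06 ± 0.20 in WT alone and -0.85 on the second probe set.

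**Figure D4:**
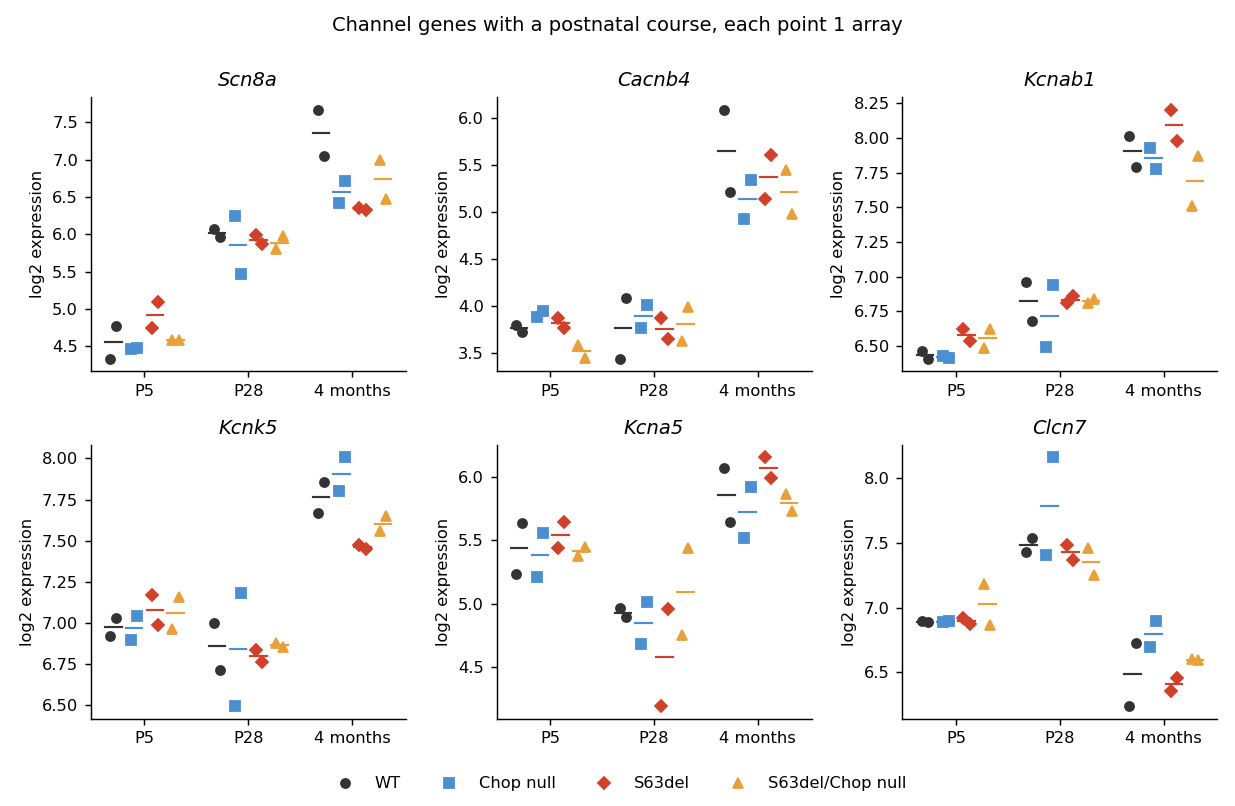
Log2 expression of 6 channel genes by age (x axis) and genotype (colour and marker), each point 1 array and each bar the mean of 2. Scn8a steps up at each age, Cacnb4, Kcnab1 and Kcnk5 step up at 4 months, and Kcna5 and Clcn7 move in opposite directions at P28 and 4 months.

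All 23 calcium channel genes were dim, so their courses lean most on the scaling. Over the 4 genotypes 15 rose and 1 fell to P28 (46.2% and 35.4% of all genes), and 2 rose and 17 fell afterwards (39.8% and 38.4%). After the further quantile normalization 9 rose and 6 fell, then 4 rose and 14 fell, again without a matching share of all genes. The 1 fall as deposited was that of Cacna1h, the T-type Cav3.2 channel, by 0.80 ± 0.11, but its second probe set gave 0.06. Cacnb4, the beta4 subunit, rose by 1.54 ± 0.13 at 4 months, from 3.44 to 4.08 at P28 to 4.93 to 6.09 with no overlap (adjusted p = 2.05e-08 in limma), while a second probe set gave 0.25. No calcium channel gene passed in S63del against WT at P5 (0 of 23, limma), and 1 did at P28, the muscle gene Cacna1s.

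Chloride channel genes went several ways. Clcn2 rose by 0.78 ± 0.12 and 0.58 ± 0.12 over the genotypes. In WT alone the first step was 0.31 ± 0.24 (adjusted p = 0.263) and the second 0.63 ± 0.24, and the mean takes in the low P5 and raised P28 arrays of both S63del genotypes. Clcn7, the lysosomal exchanger, rose by 0.59 ± 0.10, from 6.87 to 7.18 to a range of 7.25 to 8.16, and fell by 0.94 ± 0.10 to 6.24 to 6.90, with no overlap at either step. Clcn3 fell by 0.44 ± 0.07 to P28, Clcn5 fell by 0.39 ± 0.07 to 4 months, and the dim Clcn6 fell at both steps, by 0.55 ± 0.10 and 0.97 ± 0.10. Clcn4 was 0.09 ± 0.06 and -0.03 ± 0.06 and did not pass in either interval, although 0.26 and -0.28 did after the further quantile normalization. Another Clcn4 probe set, with a mean of 8.71 and so not dim, gave 0.59 and -0.94, so that its course depends on the probe set.

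Channels of skeletal muscle were kept apart, since pieces of muscle can come with a dissected nerve. Cacna1s, the voltage sensor of muscle, and Clcn1, its chloride channel, were measured, with Cacng1 and Cacnb1, subunits of the muscle calcium channel, and Kcnj11, the Kir6.2 pore, which other tissues use too. Scn4a was not analysed here. All 5 were dim. Cacna1s at P28 read 6.11 and 5.65 (WT), 5.90 and 5.52 (Chop null), 4.08 and 4.99 (S63del), and 5.69 and 4.69 (S63del/Chop null). S63del against WT was -1.34 ± 0.37 (adjusted p = 0.0482 in limma, 0.0609 after the further quantile normalization), and the call was lost without S63del replicate 1 (-0.89, adjusted p = 0.382) or either WT array.

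The mean of 16 muscle markers on the same P28 arrays was 11.2 and 10.6 (WT), 11.6 and 9.74 (Chop null), 7.82 and 10.5 (S63del), and 10.9 and 7.98 (S63del/Chop null), so that the 2 arrays with the lowest Cacna1s were those with the lowest marker means. The part of muscle in this difference was not tested. Over all arrays the marker mean ranged from 6.71 to 11.6, and 3 of 16 marker genes (Mb, Myh1 and Ryr1) were lower and 0 higher at P28 in both S63del genotypes. Of all genes 11.9% were lower and 16.1% higher in that comparison. Clcn1 in the same comparison was -0.52 ± 0.15 (adjusted p = 0.0201), with overlap. It lost its call in 6 of 14 alternatives (adjusted p up to 0.184), among them without S63del replicate 1 (-0.33), Chop null replicate 2 (-0.37), WT replicate 1 (-0.41) or S63del/Chop null replicate 2 (-0.51).

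With age Clcn1 rose by 0.98 ± 0.11 and fell by 0.87 ± 0.11, and Cacnb1 rose by 1.00 ± 0.07 and fell by 0.95 ± 0.07. The size for Cacnb1 depends on the probe set: its others, dim as well, gave 0.14 and -0.20, and 0.60 and -0.64. Cacna1s rose by 0.61 ± 0.19 and fell by 0.60 ± 0.19, of which neither was called after the further quantile normalization (0.26 and -0.27) and the latter was -1.37 in WT alone, and Cacng1 read 0.41 ± 0.27 (adjusted p = 0.164) and then fell by 0.97 ± 0.27. Of the 16 muscle markers 9 rose and 0 fell at P28 and 11 fell and 0 rose at 4 months, and their part in these courses was not tested. The muscle channel genes were dim, and all 4957 dim genes had medians of 0.38 and -0.35 over these intervals. The part of that shift was not tested either. Over the 4 genotypes 46.2% of all genes rose and 35.4% fell at P28, and 39.8% rose and 38.4% fell at 4 months. The 96 channel genes outside this group had medians of 0.41 and -0.47. They gave 68 rises and 13 falls, then 17 rises and 69 falls.

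**Figure D5:**
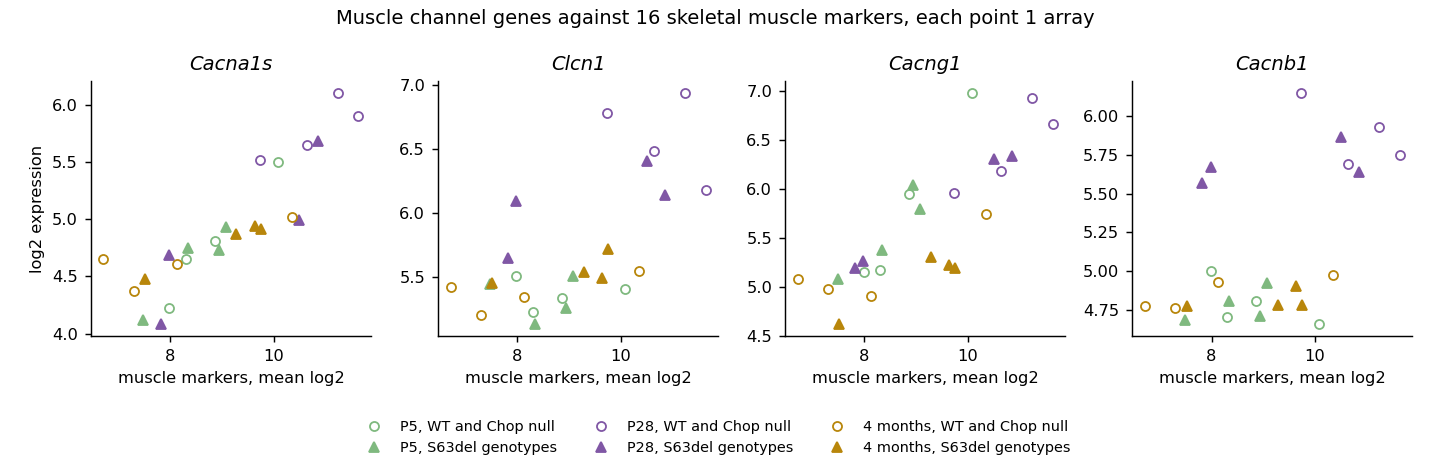
Log2 expression of 4 muscle channel genes (y axes) against the mean of 16 skeletal muscle markers (x axis), each point 1 array, coloured by age, filled for the S63del genotypes and open for WT and Chop null. At P28 the 2 arrays lowest in Cacna1s have marker means of 7.82 and 7.98, and Cacnb1 at P28, on its brightest probe set, lies above its level at the other ages.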

How the data were processed

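Sciatic nerve RNA of 24 arrays was analysed as deposited. The unit of the deposited table is log2, as its values show; how the authors normalized them, and with which software, was not given in the sources used here. Of 22690 probe sets, 64 controls and those with no or several symbols were left out (20380 have 1 symbol, from the platform annotation), which leaves 12393 genes, each read by its brightest probe set. A mean per group was estimated with lmFit and eBayes of limma 3.58.1 (R 4.3.3), which leaves 12 residual degrees of freedom; p-values were adjusted by Benjamini-Hochberg across the genes and called under 0.05. The fit was tested on simulated data. The labels call the arrays biological replicates but not whether each is a separate mouse, so p-values measure the spread between these arrays. The members and gene lists were chosen with earlier results of these data known. Named genes were, per comparison, up to 10 rises and 10 falls past the threshold without overlap of arrays, a fixed set of 33 channels, the muscle channels, and up to 4 members of each other list; the text prints part of them and says where arrays overlap. Alternatives were a further quantile normalization, the mean of a gene's probe sets, dim genes left out, arrays of the ages compared only, trend and robust estimation, a replicate block, and each array left out. Leaving out together Chop null P28 replicate 2 and WT 4 months replicate 1 was added after seeing the data.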

Additional observations from a re-analysis of the deposited data

Results flagged for a closer look

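The S63del effect on Kcnk1 differed between ages by the test of the difference itself: it was 1.74 ± 0.21 higher on the log2 scale at P28 than at P5 (adjusted p = 0.000356 in limma), with S63del against WT at -1.56 at P5 and 0.18 at P28. The value ran from 1.63 to 1.83 over its 15 alternatives, with adjusted p from 2.17e-05 to 0.00437. The marker means of myelinating Schwann cells, of endothelium and pericytes (8.14 to 8.37 against 7.89 to 8.04) and of fibroblasts and perineurium (11.25 to 11.35 against 11.03 to 11.16) were likewise lower at P5 and overlapped at P28, and their part was not tested.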

How the results depend on the processing

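Of 170 called results for single channel genes, 80 lost the threshold under at least 1 alternative, among them 35 of 45 between genotypes; over 2766 alternatives 2459 kept direction and call, 300 kept the direction only and 7 reversed. All 7 reversals came with a further quantile normalization, in the mean of 4 genotypes: from P5 to P28 Cacnb2 became -0.0552, Kcnj11 -0.0562, Kcnj2 -0.0052 and Scn9a -0.0815, and from P28 to 4 months Cacnb2 became 0.0398, Kcnj2 0.0304 and Kcnk1 -0.0149. The same setting gave 20 channel genes in both S63del genotypes at P28 (33 as deposited), 1 in Chop null against WT at P28 and 36 in WT from P28 to 4 months (60). With dim genes left out, 20 channel genes were tested. In both S63del genotypes at P28 9 of them passed (35.5% of all genes tested). In WT 10 and 11 passed in the earlier and later interval (64.2% and 61.7% of all genes tested). Over the 4 genotypes 16 and 16 passed (82.3% and 78.7%). With arrays of the ages compared only, fewer residual degrees of freedom are left. The counts were then 1 in S63del against WT at P28, and 8 and 3 in both S63del genotypes at P5 and P28. For the change of the S63del effect from P5 to P28 the count was 2. Without Chop null P28 replicate 2 and WT 4 months replicate 1, the P28 count rose in S63del against WT and fell in both S63del genotypes. This alternative was chosen after seeing the data and leaves 1 array in each of their groups. By distance from the median array of its age only the former stood apart (0.558), as the latter (0.310) lay within the range of the other arrays. The cause of these moves was not tested. Leaving out each array gave 2 to 2 in S63del against WT at P5, 1 to 5 at P28, 15 to 64 in both S63del genotypes at P28 and 0 to 1 at 4 months. It gave 0 to 1 for S63del/Chop null against S63del at 4 months, 0 to 29 and 0 to 6 for Chop null against WT at P28 and 4 months, 0 to 25 and 0 to 1 for the S63del effect with against without Chop at these ages, and 0 to 1 for the change of that effect from P28 to 4 months. The 25 came without Chop null P28 replicate 1. Same-numbered arrays did not deviate together: over 18 genotype pairs r ran from -0.477 to 0.349, with 5 over 0.1. With a replicate block 3 channel genes passed in S63del against WT at P5 and 3 at P28, and 4 and 34 in both S63del genotypes. Apart from the fit with dim genes left out, the share of all genes called under these alternatives is not given here. The moves of these counts are therefore not a result about channel genes. Groups of 2 arrays and dim signal limit what small differences can show.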
